A study of Rattus norvegicus with 8 samples.

Results

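The 10 genes described here encode the rat machinery that makes peptides and loads them onto MHC class I molecules. They are the class I heavy chains *RT1-A2* and *RT1-CE16*, the light chain *B2m*, the peptide transporter genes *Tap1* and *Tap2*, the loading chaperone *Tapbp*, the 3 inducible proteasome subunits *Psmb8*, *Psmb9* and *Psmb10*, and the proteasome activator subunit *Psme1*. They were chosen by their known roles and by symbol, with earlier results of these data known. All 10 were found among the 15159 genes that the arrays measured under a current name. They were measured in hypothalamic blocks that included the arcuate nuclei, from male rats of the F344 strain (F344N in the labels) kept in short days (SD, 8 h light and 16 h dark). Each rat had a cannula in the third ventricle and an angiotensin test 7 days earlier, and received 5 µl of all-*trans* retinoic acid (RA; 4 rats) or vehicle (4 rats), 24 h before it was killed. The labels name saline as the vehicle and the study's methods 10% DMSO in saline, and the RA concentration is 1e-05 M in the labels but 1e-04 M in the methods. The age of the rats is not given in the sources used here, and both groups carried the cannula.

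The class I pathway shows samples of a cell's own proteins to CD8 T cells. The proteasome cuts proteins into peptides, the transporter TAP moves these into the endoplasmic reticulum, and tapasin holds an empty class I molecule beside TAP until a peptide fits. Interferons are known to raise the genes of the pathway together, through the transcription factors IRF and STAT and the coactivator NLRC5, and to replace the 3 constitutive catalytic subunits of the proteasome by the inducible ones, giving the immunoproteasome. In the healthy brain these genes are mostly low and are found in microglia and vessel cells, and to a lesser degree in neurons.

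The promoters of the members are described first. The genes were not chosen by their promoter sequences. They were chosen for a pathway that interferons are known to raise, so matches of interferon motifs are not independent of the choice. A promoter is here the window from 250 bases before to 50 bases after the start of the gene in RefSeq's table for the build GRCr8, which comes from a strain with another RT1 haplotype than F344. The core of the interferon-stimulated response element (ISRE), written GAAANNGAAA and searched on both strands, was present in 6 of the 10 windows, against 3.92% of all 33469 windows of that length. The stretches that hold it are printed 5′ to 3′ on the strand of the gene, and capitals mark the ISRE core, or its reverse complement where it lies on the other strand.
*B2m* (GRCr8 chr3:129549135-129549234, plus strand): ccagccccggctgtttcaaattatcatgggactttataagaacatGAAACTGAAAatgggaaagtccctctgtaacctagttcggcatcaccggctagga
*Tap1* (GRCr8 chr20:4668610-4668709, minus strand): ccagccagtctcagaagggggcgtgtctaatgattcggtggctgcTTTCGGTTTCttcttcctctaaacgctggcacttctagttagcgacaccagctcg
*Tap2* (GRCr8 chr20:4652297-4652382, minus strand): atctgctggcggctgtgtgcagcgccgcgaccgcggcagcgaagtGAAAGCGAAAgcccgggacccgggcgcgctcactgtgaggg
*Tapbp* (GRCr8 chr20:4967878-4967948, minus strand): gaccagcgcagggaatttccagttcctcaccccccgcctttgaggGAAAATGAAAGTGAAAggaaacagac
*Psmb8* (GRCr8 chr20:4657026-4657080, minus strand): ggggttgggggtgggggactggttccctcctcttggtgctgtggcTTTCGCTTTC
*Psmb10* (GRCr8 chr19:50743293-50743410, minus strand): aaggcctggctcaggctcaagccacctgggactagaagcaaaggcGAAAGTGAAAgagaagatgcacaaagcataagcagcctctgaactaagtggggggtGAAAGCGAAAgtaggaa

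*Tapbp* held 2 overlapping matches and *Psmb10* 2 separate ones, whereas the other 4 held 1 each. *Tap2*, *Psmb8*, *Tap1* and *Psmb9* are 4 consecutive genes of chromosome 20, and *Tap1* and *Psmb9* are transcribed away from each other from starts that lie 457 bases apart. The match of *Tap1* therefore also lies 336 to 345 bases before the start of *Psmb9*, outside the window of *Psmb9*, which held no match of its own. *RT1-A2*, *RT1-CE16* and *Psme1* held none, whereas *Psme2*, the partner of *Psme1* in the same activator ring, held 1. None of the constitutive subunits *Psmb5*, *Psmb6* and *Psmb7* held it. A match is a string of letters in a window and was not tested as a site. Only this exact string was searched, so windows without a match, such as those of *RT1-A2* and *RT1-CE16*, may hold an element in other letters. The windows of *RT1-A2* and *RT1-CE16* both hold tttcactt, which fits the start of the reverse complement of the core. The letters after it differ from the end of the core, and whether the stretch acts as an element was not tested. An element may also lie beyond the edge of a window. The window of *Psme1* ended in tttcgctt, which begins like the reverse complement of the core.

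Other motifs were searched in the same windows. The NF-kB motif was present in 5 of the 10 members (*RT1-A2*, *RT1-CE16*, *B2m*, *Tap1* and *Tapbp*), against 7.51% of all windows. The hexamer AGGTCA, the motif unit to which receptors of the RA receptor family are known to bind, was present in 3 (*RT1-A2*, *RT1-CE16* and *Tap2*), against 16.2%. The core of the gamma-interferon-activated site, TTCNNNGAA, was present in 1 (*Psmb8*), against 8.87%. The CCAAT box was present in 5 members against 37.5% of all windows, TATAA in 2 against 26.2%, and TGACG, a core found in class I promoters, in 4 against 21.2%. All were searched on both strands, and matches of different motifs could overlap.

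The heavy chain genes belong to a large family of near copies, so their promoters were compared with each other. *RT1-A2* and *RT1-CE16* shared an unbroken run of 54 bases, which was found in 3 of 33 RT1 class I windows, the other one being that of *RT1-A3*. The run, which includes the tttcactt named above, is shown because it is the longest stretch that the 2 heavy chain members have in common. It lies at chr20:4872712-4872765 (plus strand) for *RT1-A2* and chr20:3265505-3265558 (minus strand) for *RT1-CE16*, in GRCr8, and no part of it is in capitals.
Shared run: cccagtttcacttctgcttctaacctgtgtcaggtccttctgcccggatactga
Over the whole window, the aligned identity of the 2 was 65.2%, with gaps counted as differences. The shared run lies at bases -159 to -106 of *RT1-A2* but -115 to -62 of *RT1-CE16*, so the 2 windows are offset. The identity therefore also depends on where the starts are annotated. By this measure each was closer to another gene of the family, *RT1-CE16* to *RT1-CE13* (88.2%) and *RT1-A2* to *RT1-A3* (84.7%). The sequences of the probes are not in the files used here, so a signal of 1 RT1 probe may come from several RT1 genes.

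RNA was measured on 8 two-colour Agilent arrays on 1 slide, each with an RA sample in one dye and a vehicle sample in the other. RA was in Cy5 on arrays 1, 3, 6 and 8 and in Cy3 on arrays 2, 4, 5 and 7, and arrays 1 to 4 lay in slide row 1 and arrays 5 to 8 in slide row 2. A value is the log2 ratio of RA over vehicle on 1 array, and a log2 fold change is its mean over the 8 arrays with the standard error (SE) of limma's fit. Per the study's methods, samples were used again in dye-swaps, so the 8 arrays stand for 4 rats per group. Which arrays share the RNA of a rat is not stated, so each p is the largest of those from all 24 ways of pairing arrays of opposite dye. Following the study's methods, an unadjusted p under 0.01 was taken as a call, and the p adjusted over all probes is given beside it. Each member had 1 probe that could be named, with 2 spots, and all 10 were well above background in RA and in vehicle on all 8 arrays. Probes without a name were not examined for further probes of the members. As whole tissue blocks were used, more cells of a type and more RNA per cell cannot be told apart.

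All 10 members had a mean above 0 after RA, with a median log2 fold change of 0.52, where the median of all genes was -0.0047. In limma, 8 of the 10 were called higher (*RT1-A2*, *RT1-CE16*, *Tap2*, *Tapbp*, *Psmb8*, *Psmb9*, *Psmb10* and *Psme1*) and 0 lower, against a background of 3.52% of 15159 genes called higher and 0.792% called lower. The log2 ratio was above 0 on all 8 arrays for 9 of the 10, against 4.07% of all genes. *Tap1* was the exception, on 1 array. As the members were chosen with earlier results of these data known, the shares over all genes are a background and no test of the set. After Benjamini-Hochberg adjustment in limma, 0 of the 10 members and 0% of all genes had a p under 0.05, and the members' adjusted p lay between 0.222 and 0.362, although all 10 had an unadjusted p under 0.05, against 13.1% of all genes.

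**Figure D1:**
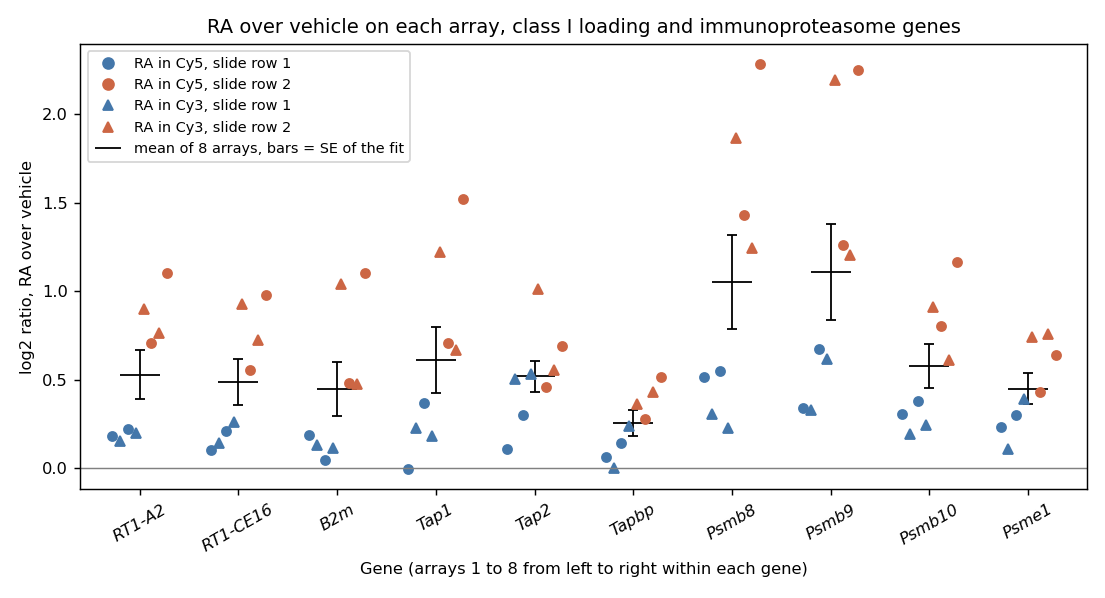
Each point is the log2 ratio of RA over vehicle of 1 gene on 1 array, with circles for RA in Cy5, triangles for RA in Cy3, blue for slide row 1 and orange for slide row 2, and black bars give the mean of 8 arrays with the SE of the fit. The orange points lie above the blue ones for 9 of the 10 genes, and the highest points are those of *Psmb8* and *Psmb9* at 2.28 and 2.25.

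The inducible proteasome subunits showed the 2 largest changes. *Psmb9*, which encodes beta1i, had log2 ratios of 0.34, 0.33, 0.67, 0.62, 2.19, 1.26, 1.20 and 2.25 on arrays 1 to 8. Arrays 5 and 8 were highest, and every array of slide row 2 was above every array of row 1. The log2 fold change was 1.11 (SE 0.27), or 2.16-fold, a call in limma (Benjamini-Hochberg adjusted p = 0.270). *Psmb8*, which encodes beta5i, had log2 ratios of 0.51, 0.31, 0.55, 0.22, 1.87, 1.43, 1.24 and 2.28 on arrays 1 to 8. Its order of arrays was similar, with array 8 highest and no overlap between the slide rows. Its mean of 1.05 (SE 0.27), or 2.07-fold, was called in limma (Benjamini-Hochberg adjusted p = 0.281).

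*Psmb10*, which encodes beta2i and lies on chromosome 19, away from the other inducible subunits, rose less. Its log2 ratios were 0.31, 0.19, 0.38, 0.24, 0.91, 0.80, 0.61 and 1.17 on arrays 1 to 8. All arrays were above 0, and row 2 was again above row 1. The mean was 0.58 (SE 0.13), or 1.49-fold, again a call in limma (Benjamini-Hochberg adjusted p = 0.261). *Psme1* encodes the alpha subunit of PA28, a ring that opens the proteasome and is known to favour the release of class I ligands. Its log2 ratios were 0.23, 0.11, 0.30, 0.39, 0.74, 0.43, 0.76 and 0.64 on arrays 1 to 8. They were highest on array 7, and the 2 rows came close to each other, at 0.39 on array 4 and 0.43 on array 6. With a log2 fold change of 0.45 (SE 0.087), or 1.37-fold, it was called in limma (Benjamini-Hochberg adjusted p = 0.227).

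Each inducible subunit was then set against the constitutive subunit whose place it takes in the proteasome core. *Psmb5*, *Psmb6* and *Psmb7* had log2 fold changes of 0.0045, -0.016 and 0.00093, and none passed the threshold in limma. On each array, the log2 ratio of the constitutive subunit was subtracted from that of the inducible one. The difference was 1.05 ± 0.83 (SD, n = 8 arrays) for *Psmb8* minus *Psmb5*, with a range of 0.11 to 2.41. It was 1.12 ± 0.80 for *Psmb9* minus *Psmb6*, with a range of 0.28 to 2.37, and 0.57 ± 0.39 for *Psmb10* minus *Psmb7*, with a range of 0.12 to 1.23. All 3 differences were above 0 on 8 of 8 arrays, and correspond to 2.07-, 2.18- and 1.49-fold. The exact two-sided sign-flip permutation test on the 4 pair means gave p = 0.125 for each under all pairings, which is the smallest p that 4 pairs allow.

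**Figure D2:**
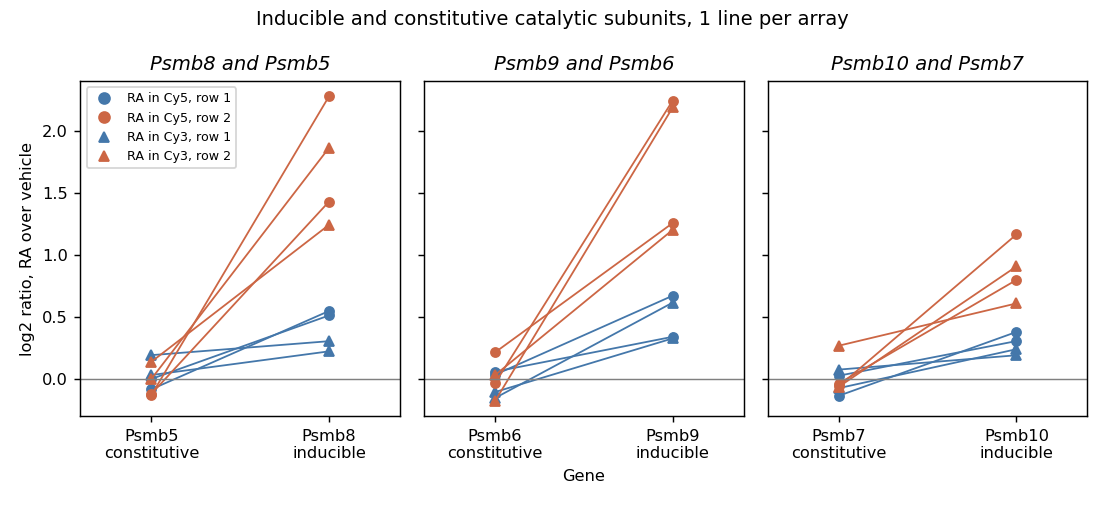
Each line joins the log2 ratios of RA over vehicle of a constitutive (left) and an inducible (right) proteasome subunit on 1 array, with circles for RA in Cy5, triangles for RA in Cy3, blue for slide row 1 and orange for slide row 2. All lines rise from left to right, on 8 of 8 arrays in each panel, and the constitutive subunits lie close to 0.

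The transporter and the chaperone that link peptide supply to the class I molecule had smaller values than *Psmb8* and *Psmb9*. *Tap2*, which encodes 1 of the 2 chains of the TAP pump, had log2 ratios of 0.10, 0.50, 0.30, 0.53, 1.01, 0.46, 0.56 and 0.69 on arrays 1 to 8. It was the only member whose slide rows overlapped, since arrays 2 and 4 were above array 6. Its log2 fold change of 0.52 (SE 0.086), or 1.43-fold, had the lowest p of the members in limma (Benjamini-Hochberg adjusted p = 0.222). *Tap1*, the partner of *Tap2*, had log2 ratios of -0.0052, 0.23, 0.37, 0.18, 1.22, 0.70, 0.67 and 1.52 on arrays 1 to 8. Array 1 was just below 0, and arrays 5 and 8 were the highest. The mean of 0.61 (SE 0.19), or 1.53-fold, was not called in limma (Benjamini-Hochberg adjusted p = 0.326). An unadjusted p under 0.01 was reached in 22 of the 24 pairings.

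*Tapbp* encodes tapasin, the bridge between TAP and the empty class I molecule. Its log2 ratios were 0.062, 0.0023, 0.14, 0.24, 0.36, 0.28, 0.43 and 0.51 on arrays 1 to 8. Array 2 was at about 0, and the rise of 0.25 (SE 0.072), or 1.19-fold, was the smallest of the members. It was called in limma, with the highest p of the 8 calls (Benjamini-Hochberg adjusted p = 0.305).

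The genes of the class I molecule itself, heavy chains and light chain, were above 0 on every array. *RT1-A2*, a classical heavy chain gene, had log2 ratios of 0.18, 0.15, 0.22, 0.20, 0.90, 0.71, 0.76 and 1.10 on arrays 1 to 8. The 4 arrays of row 1 lay within 0.15 to 0.22, well below those of row 2. Its log2 fold change of 0.53 (SE 0.14), or 1.44-fold, was called in limma (Benjamini-Hochberg adjusted p = 0.288). *RT1-CE16*, a heavy chain gene of another block of the RT1 complex, had log2 ratios of 0.10, 0.14, 0.21, 0.26, 0.92, 0.55, 0.72 and 0.98 on arrays 1 to 8. Its pattern over arrays was close to that of *RT1-A2*, with which its probe may share targets. In limma its mean of 0.49 (SE 0.13), or 1.40-fold, was called as well (Benjamini-Hochberg adjusted p = 0.289).

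*B2m* encodes beta-2 microglobulin, the light chain that all class I molecules need. Its log2 ratios were 0.19, 0.13, 0.045, 0.11, 1.04, 0.48, 0.48 and 1.10 on arrays 1 to 8. Arrays 5 and 8 stood above arrays 6 and 7, and these above row 1. The mean of 0.45 (SE 0.15), or 1.36-fold, was not called in limma (Benjamini-Hochberg adjusted p = 0.362), and 18 of the 24 pairings gave an unadjusted p under 0.01.

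In the order of their log2 fold changes, the members ran *Psmb9*, *Psmb8*, *Tap1*, *Psmb10*, *RT1-A2*, *Tap2*, *RT1-CE16*, *Psme1*, *B2m* and *Tapbp*. The step from *Psmb8* to *Tap1* was 0.44 ± 0.29 (SD, n = 8 arrays) and had the same sign on 8 of 8 arrays. Its exact two-sided sign-flip permutation p was 0.125, the smallest possible. As the order and its direction were taken from the same values, this p tests no comparison set beforehand. No other neighbours in the order differed in the same direction on all arrays, and their steps were 0.19 or less. Of these, *Psmb10* was above *RT1-A2* on 7 arrays and *B2m* above *Tapbp* on 6. For all 10 members the exact two-sided sign-flip permutation p of the log2 fold change itself was also 0.125.

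The members differed more between slide rows than between dye orders. The median of the 10 members was 0.18, 0.17, 0.30 and 0.24 on arrays 1 to 4 and 0.97, 0.63, 0.69 and 1.10 on arrays 5 to 8, while the median of all genes stayed between -0.0079 and 0.0077 on every array. For 9 of the 10 members, all 4 arrays of row 2 were above all 4 of row 1, against 5.3% of all genes. In row 1 the mean log2 ratios ranged from 0.11 (*Tapbp*) to 0.49 (*Psmb9*), and in row 2 from 0.40 (*Tapbp*) to 1.73 (*Psmb9*). With the 4 arrays of row 1 alone and a dye term, limma called 5 members (*Tap2*, *Psmb8*, *Psmb9*, *Psmb10* and *Psme1*), where 2.57% of all genes were called higher. With those of row 2 alone it called all 10, where 7.35% of all genes were. Both fits take the 4 arrays as independent, so their p-values are too small if arrays of a row share rats. Some genes, picked after their values were seen, had like values on couples of arrays of opposite dye within a row. *Ttr* had -4.48 and -5.11 on arrays 6 and 7 but 0.57 or more on the others, *Pmch* had -1.30 and -1.16 on arrays 5 and 8, and *Trem2* had 0.45 and 0.32 on arrays 1 and 2 but -1.16 and -1.44 on arrays 3 and 4. This is a hint from the data that each couple holds the same rats, which the labels do not state. With these couples as the pairs (1 and 2, 3 and 4, 5 and 8, 6 and 7), 8 members were called in limma, 0 of them at an adjusted p under 0.05, and 3.67% of all genes were called higher. If the rows hold different rats, slide row and rat cannot be told apart. Array 8 was the highest for 8 members, array 5 for *Tap2* and array 7 for *Psme1*. By contrast, the mean was higher with RA in Cy3 for 4 members and with RA in Cy5 for the other 6, and the difference between dye orders was largest for *Psmb8* (1.19 in Cy5 and 0.91 in Cy3) and *Tap2* (0.39 and 0.65).

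Single-channel levels, on the log2 intensity scale after loess, put these ratios beside the signals. *Psmb9* ran from 9.46 to 11.6 in RA and from 8.65 to 10.1 in vehicle. *Psmb10* ran from 11.5 to 12.7 in RA and from 11.3 to 11.9 in vehicle, and *B2m* from 12.8 to 14.3 and from 12.4 to 13.8. RA and vehicle overlapped for all 10 members when arrays were pooled, because arrays differed in brightness, so the change was seen within arrays. Levels of different probes are not comparable with each other.

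The limma calls depended on the background correction and on the arrays of row 2. Without background correction 7 members were called, against 3.34% of all genes called higher, and with the deposited normalised values 7, against 3.25%. With plain subtraction of the background, *Tap2* alone stayed called, where 1.02% of all genes were called higher, although the log2 fold changes of all 10 members were as large or larger (*Tap1* 1.01, *Psmb8* 1.22). With Agilent's own log ratio, *Tap2* alone stayed called, against 0.739% of all genes, and the log2 fold changes were 0.987 to 1.63 times those reported here. With the test restricted to probes well above background 5 members were called, against 3.84%. Leaving out arrays 6 and 7 left 2 called (*Tap2* and *Psme1*), against 2.10% of all genes, arrays 6 and 5 left 4 (1.93%), arrays 8 and 7 left 4 (1.97%), arrays 8 and 5 left 5 (1.62%) and arrays 6 and 4 left 5 (3.15%). Without arrays 8 and 5, the log2 fold change dropped from 0.45 to 0.24 for *B2m*, from 0.61 to 0.36 for *Tap1* and from 1.11 to 0.74 for *Psmb9*, and no other left-out couple moved a member by over 1.5 times.

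The rest of the pathway was followed in lists of genes with known roles, and 0 genes of these lists were called lower. For all lists, the background was 3.52% of all genes called higher and 0.792% called lower. Of the other class I and class I-like genes, 5 of 32 measured were called higher, with a median log2 fold change of 0.094. These were *RT1-A1* (0.45, SE 0.12), *RT1-CE2* (0.48, SE 0.13), *RT1-N3* (0.43, SE 0.12), *RT1-S3* (0.42, SE 0.12) and *RT1-S2* (0.45, SE 0.13). The last 2 were named after their values were seen. All 5 were among the 17 further RT1 genes whose probes were well above background, which had log2 fold changes between 0.055 and 0.48, whereas none of the 10 RT1 genes with dimmer probes was called. For *RT1-CE5*, *RT1-M6-1* and *RT1-T18*, a second, dim probe was near 0 (0.048, 0.035 and -0.029) while the brighter one had 0.42, 0.39 and 0.39. Second probes that were bright had values like the first, at 0.51 for *RT1-A1*, 0.39 for *RT1-CE2* and 0.37 for *RT1-S2*. Since RT1 genes share sequence, these values are uncertain as values of single genes.

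**Figure D3:**
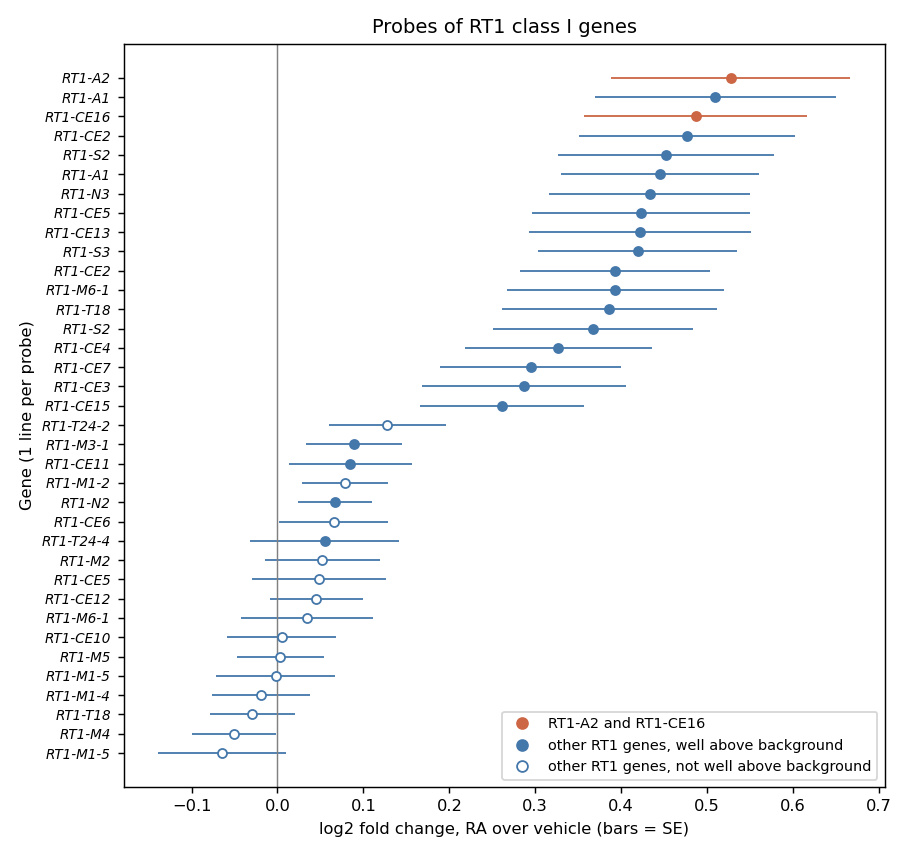
Each line is 1 probe of an RT1 class I gene with its log2 fold change (RA over vehicle) and SE, filled where the probe was well above background on all 8 arrays in RA or in vehicle, and orange for *RT1-A2* and *RT1-CE16*. The 2 orange probes, at 0.53 and 0.49, lie at the upper end of a group of bright probes, and open symbols lie near 0.

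Of the genes that regulate the pathway or carry interferon signals, 4 of 17 were called higher, against 3.52% of all genes, with a median of 0.14. *Irf9* (0.33, SE 0.078) and *Stat2* (0.39, SE 0.11) form the DNA-binding complex of type I interferon signalling, *Ifngr1* (0.26, SE 0.071) is the ligand-binding chain of the interferon gamma receptor, and *Jak2* (0.19, SE 0.054) is a kinase of that receptor. *Stat2* was named after its value was seen, as was *Irf1*, an activator of class I genes, which had 0.77 (SE 0.26), above 0 on 8 arrays and the largest value in the list, but no call in limma. The probes of the ligand genes *Ifng* and *Ifnb1* were not well above background on any array in RA or in vehicle. *Nlrc5*, *Ifnar2* and *Nfkb1* were not matched to a probe and were not analysed here.

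In the list of other proteasome activators and assembly factors, 1 of 5 was called higher, against 3.52% of all genes, with a median of 0.073. It was *Psme2*, which encodes the beta subunit of PA28, at 0.43 (SE 0.11), close to the 0.45 of *Psme1*. Of the other 20S core subunits 0 of 11 were called, with values between 0.00083 and 0.12 (*Psma4*), and of the 3 constitutive counterparts 0. Of the general loading chaperones and trimming peptidases 0 of 7 were called, with a median of 0.082, and the largest value was that of the chaperone *Calr* at 0.23 (SE 0.083). Genes of the 19S regulatory particle were in none of these lists.

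**Figure D4:**
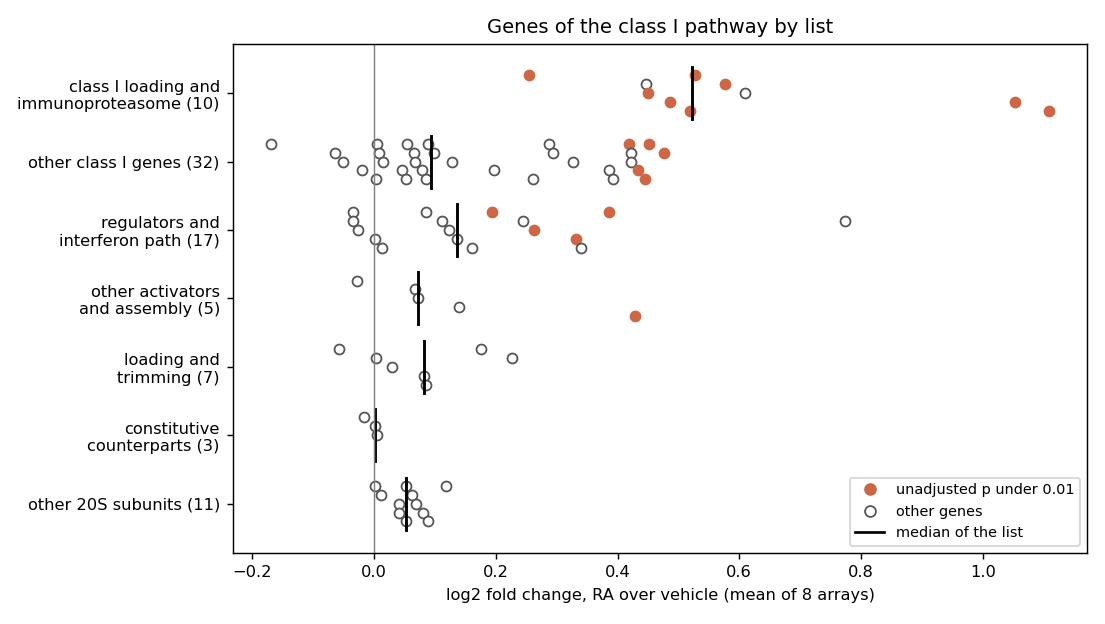
Each point is the log2 fold change (RA over vehicle) of 1 gene, by list, with the number of genes measured in brackets, filled where the unadjusted p in limma was under 0.01, and black lines are medians. The median is 0.52 for the class I loading and immunoproteasome genes and 0.14 or less in the other 6 lists.

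The genes whose log2 ratios were nearest to the mean of the members over the 8 arrays were *Cd6*, *F10*, *Sp110*, *C8h19orf38* and *Il18bp*, out of 10032 genes well above background that are no members. Their mean absolute difference from the members' mean was 0.077, 0.087, 0.11, 0.12 and 0.12 on the log2 scale, whereas for single members it ran from 0.081 (*RT1-A2*) to 0.51 (*Psmb9*). *Sp110* is an interferon-induced nuclear body gene, *Il18bp* a secreted inhibitor of interleukin-18, *Cd6* a lymphocyte receptor and *F10* a clotting factor. Their log2 fold changes were 0.59 (*Cd6*), 0.65 (*F10*), 0.67 (*Sp110*), 0.52 (*C8h19orf38*) and 0.52 (*Il18bp*).

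Markers of cell types that could carry class I RNA also moved. Their counts stand against 3.52% of all genes called higher and 0.792% called lower. Of the microglia markers 4 of 10 were called higher (*C1qa* at 0.83, *Aif1* at 0.88, *Itgam* at 0.87 and *Cd68* at 1.07, with SE of 0.13, 0.15, 0.18 and 0.29) and 1 lower (*Tmem119* -0.52, SE 0.11), and the last 2 were named after their values were seen. The median of the list was between -0.13 and 0.26 on the arrays of row 1 and between 0.26 and 0.44 on those of row 2. Of the monocyte and perivascular macrophage markers 3 of 7 were called higher (*Plac8* at 2.03, *Lyz2* at 1.30 and *Lyve1* at 0.34, with SE of 0.33, 0.24 and 0.087), while the defining monocyte marker *Ccr2* was not well above background in 7 of 8 RA and all 8 vehicle samples. Of the neutrophil markers 1 of 6 was called higher (*S100a9* 1.25, SE 0.35). The 11 T and NK cell markers gave 0 calls, and 1 of them was well above background on all arrays, but their median was between 0.015 and 0.17 in row 1 and between 0.28 and 0.47 in row 2. *Cd8a* had the largest value of that list (0.75, SE 0.24), with means of 0.16 in row 1 and 1.34 in row 2. Its probe was well above background in only 5 of 8 RA and 1 of 8 vehicle samples. *Cd8b*, named after its value was seen, had 0.074 (SE 0.077), while 10 of the 11 markers had a mean above 0. The part of these cells in the change of the class I genes was not tested.

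Of the astrocyte markers 1 of 7 was called higher (*Gfap* 1.40, SE 0.20) and 1 lower (*Gja1* -0.22, SE 0.059), and of the ependymal and tanycyte markers 2 of 7 were called higher (*Vim* 0.62, SE 0.17, and *Rarres2* 0.40, SE 0.11). The same shares of all genes, 3.52% higher and 0.792% lower, are the background here. Endothelial (7) and oligodendrocyte markers (6) gave 0 calls, the largest values being *Cldn5* at -0.14 (SE 0.059) and *Mobp* at -0.28 (SE 0.10). Hypothalamic neuropeptide genes, which define the tissue, were well above background for 13 of 14, with 1 called lower (*Cartpt* -0.42, SE 0.090), and their median was -0.47 and -0.43 on arrays 5 and 8 but between -0.026 and 0.31 on the others. The 10 choroid plexus markers gave 0 calls, the largest value being *Sostdc1* at -0.40 (SE 0.68), and their median was -1.39 and -1.59 on arrays 6 and 7 but between 0.078 and 0.57 on the others. The members were above 0 on arrays 6 and 7 as on arrays 5 and 8, and the part of tissue content in their differences between arrays was not tested.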

How the data were processed

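Total RNA of hypothalamic blocks was labelled and hybridised to 8 two-colour Agilent arrays. The authors deposited the scanner output, with linear Cy3 and Cy5 intensity values and Agilent's log10 ratio per spot, and a table of normalised log2 ratios. Per the study's methods they used R and limma with loess normalisation, averaging of same probes and dye-swaps as a block, and no background correction is given in the sources used here. In the deposited table, the log2 ratio was RA over vehicle on all arrays and matched loess without background correction (Pearson's r across probes 0.999 to 1.00 per array), with array medians between -0.0030 and 0.013.

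Here, R 4.3.3 and limma 3.58.1 were used on median spot signals, since no mean signals were found in the files, although the plan named means. Normexp (offset 50) corrected the background, loess was run within arrays with control spots at weight 0, outlier spots (0.913% to 2.42% per array) were left out, and spots of a probe were averaged. Mean values of 4 pairs of arrays of opposite dye were fitted with an intercept and moderated variances, in all 24 pairings, and the largest p was kept. P-values were adjusted over 30367 probes by Benjamini-Hochberg. They measure the spread between pairs of arrays of 4 rats per group. The number of arrays limits the precision.

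Probes (18006 of 30367, 59.3%) were named by RefSeq accession through the GRCr8 gene table, and the brightest probe of a gene was used. A gene was well above background where at least 0.5 of its spots carried Agilent's mark. RefSeq promoters (GRCr8) were searched with Python 3.11.15 and aligned with Biopython 1.88. Members and lists were chosen with earlier results of these data known. The text names all members, up to 3 called genes of each other list with the lowest p, or else the gene with the largest value, the 3 constitutive counterparts and the 5 nearest genes. The fit was tested on simulated data.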

Additional observations from a re-analysis of the deposited data

Results flagged for a closer look

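The log2 ratio (RA over vehicle) of *Tap2* on array 5, 1.01, lay apart from the other 3 arrays with RA in Cy3, which were between 0.50 and 0.56. Its gap to the nearest of them was 0.891 of the range of the 4 arrays, above Dixon's critical value for 4 samples. The 10 members were examined in both dye orders, giving 20 groups of 4 arrays, of which this 1 was picked out, and chance picks out about 1 in 20 groups.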

How the results depend on the processing

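Values were recomputed under 34 alternatives, 16 of which left out 1 array of each dye order. No log2 fold change of a member changed sign in any of them, and *Tap2* was called in all 33 that gave member values. The others were called in 31 (*Psme1*), 30 (*Psmb10*), 29 (*Psmb9*), 28 (*Psmb8*), 25 (*RT1-A2*), 22 (*RT1-CE16*), 12 (*Tapbp*), 11 (*Tap1*) and 6 (*B2m*). Instead of 8, limma called 1 member with plain background subtraction, 1 with Agilent's log ratio, 5 with only probes well above background and 5 with slide row 1 alone, where 1.02%, 0.739%, 3.84% and 2.57% of all genes were called higher, against 3.52%, and the members' median was 0.57, 0.53, 0.52 and 0.22 instead of 0.52. With 2 arrays left out, between 2 and 9 members were called, 9 to 10 were above 0 on all arrays, 0 had an adjusted p under 0.05 and the median was 0.37 to 0.63. Their differences were 0.68 to 1.29 (*Psmb8* minus *Psmb5*), 0.72 to 1.38 (*Psmb9* minus *Psmb6*) and 0.40 to 0.70 (*Psmb10* minus *Psmb7*). Instead of 0, the number of members with a Benjamini-Hochberg adjusted p under 0.05 in limma was 10 in the pairing with the most calls, 7 with 8 independent arrays and a dye term, 3 with pairs as a random block, 10 with slide row 2 alone and 10 with dye and slide row terms, where 8.53%, 4.16%, 1.37%, 5.32% and 8.57% of all genes passed. Those with 8 independent arrays or with dye and slide row terms ignore that arrays share rats, and slide row 2 alone ignores that its arrays may. The pairing with the most calls joins arrays of different slide rows throughout. In the pairing with the fewest calls, which joins arrays 1 and 2, 3 and 4, 5 and 8, and 6 and 7, 8 members were called and 0 had such an adjusted p. Why the counts differed was not tested. Taking the mean over all named probes, or the second brightest, gives no other value for genes with 1 named probe. The labels number all arrays separately, so no pairing could be taken from them.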
